A study of Mus musculus with 2 samples.

Results

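Cyclin-dependent kinase (CDK) inhibitors were followed at the RNA level in sorted haematopoietic stem cells (HSCs) of mouse bone marrow. The 5 genes described are Cdkn1a, Cdkn1b, Cdkn1c, Cdkn2c and Cdkn2d, chosen by symbol from the 32285 genes counted, and all 5 were measured in both libraries. Both groups came from wild-type C57Bl6 mice, 8 weeks old. Long-term HSCs (LT-HSC) were gated as LSK cells (lineage negative, Sca-1 and Kit positive) lacking CD34, CD48 and Flk2 and carrying CD150. Short-term HSCs (ST-HSC) were gated as LSK cells lacking CD34 and carrying both CD150 and CD48. Each group is a single droplet library made with a 3' kit, in which every captured RNA molecule carries a unique molecular identifier (UMI). No difference here has a replicate check, and all intervals are 95% intervals of counting error only.

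CDK inhibitors bind cyclin-dependent kinases or their complexes with cyclins and hold cells back from entering S phase. The Cip/Kip branch consists of Cdkn1a (p21), Cdkn1b (p27) and Cdkn1c (p57), which act on several cyclin and CDK complexes, while the INK4 branch, here Cdkn2c (p18) and Cdkn2d (p19), binds CDK4 and CDK6 and keeps them from D-type cyclins. In bone marrow, HSCs spend most of their time out of cycle, and p57 and p27 are among the proteins known to keep them there.

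After removal of barcodes with fewer than 1000 genes or with 10% or more of UMIs from mitochondrially encoded genes, 2722 of 2938 LT-HSC and 6648 of 7586 ST-HSC barcodes were kept, with medians of 17595 and 13402 UMIs per cell and totals of 64673871 and 111783180 UMIs. The libraries shared 8 barcode sequences, 6 of them among kept cells. RNA of the sorting gate went against the ST-HSC label in part: Slamf1, which encodes CD150, was at 26.5 counts per 1000000 UMIs (CPM) in LT-HSC against 1.26 CPM in ST-HSC, although both gates ask for CD150, and Cd34 was at 29.2 CPM in LT-HSC cells and 242 CPM in those of ST-HSC, although both gates exclude it. LT-HSC and ST-HSC below mean the libraries as labelled. Cells were sorted into classes by 3 genes. Hlf, a transcription factor of HSCs, marked Hlf-high cells at 200 CPM or more. Car1, a carbonic anhydrase of early erythroid cells, and Pf4, the platelet chemokine, marked Car1-high and Pf4-high cells at 1000 CPM or more. A cell had to pass 1 limit only.

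Of LT-HSC cells, 954 (35.0%) were Hlf-high, 824 Car1-high and 237 Pf4-high, 673 passed no limit and 34 passed more than 1. Of ST-HSC cells, 4348 (65.4%) were Hlf-high, 326 Car1-high and 3 Pf4-high, 1942 passed no limit and 29 passed more than 1. These classes are ranges and not cell types, and 625 LT-HSC and 1703 ST-HSC cells lay within 2-fold of the Hlf limit. The median cell of the Hlf-high class had 0 CPM of Car1 and of Pf4 in both libraries, and its median depth was 12288 UMIs in LT-HSC against 12294 UMIs in ST-HSC. The 7 HSC markers, Hlf among them, summed to 2533 CPM and 2877 CPM in the Hlf-high cells of LT-HSC and ST-HSC. In Car1-high cells they summed to 146 CPM and 98.7 CPM, where the 7 erythroid markers summed to 6838 CPM and 4125 CPM. Car1, which defined the class, made 6478 CPM and 3363 CPM of these erythroid sums. The 6 megakaryocyte markers summed to 6629 CPM in the Pf4-high cells of LT-HSC, of which Pf4, the gene that defined the class, made 5853 CPM.

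The genes lie on 5 chromosomes of the mouse build mm10 (GRCm38), with positions from GENCODE M21. Cdkn1a lies on chromosome 17 from 29090976 to 29100727 on the plus strand, and Cdkn1b on chromosome 6 from 134920401 to 134925513, also on the plus strand. Cdkn1c lies on chromosome 7 from 143458339 to 143461050, Cdkn2c on chromosome 4 from 109660876 to 109667189, and Cdkn2d on chromosome 9 from 21288410 to 21291407, these 3 on the minus strand. No annotated gene overlaps any of them on its own strand. On the opposite strand AC167363.2 overlaps Cdkn1a and Gm44732 overlaps Cdkn1c, and how the counting used strand is not given in the sources used here.

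Promoter sequences are shown for Cdkn1b and Cdkn2d, which like Cdkn1c were lower in the Hlf-high cells of ST-HSC. A sequence is also shown for Cdkn2c, whose RNA was the one that went with proliferation RNA in both libraries. Each window runs from 250 bases before to 50 bases after a transcript start (RefSeq, GRCm38.p6). The promoter set used holds windows for Cdkn1a (2 starts), Cdkn1b, Cdkn2c (2 starts) and Cdkn2d, and none for Cdkn1c. The windows shown are chr6:134920151-134920450 (plus strand), chr4:109666707-109667006 (minus strand) and chr9:21291160-21291459 (minus strand). Capitals mark GC boxes, GGGCGG or its reverse complement, the core of sites bound by Sp family factors.
Cdkn1b: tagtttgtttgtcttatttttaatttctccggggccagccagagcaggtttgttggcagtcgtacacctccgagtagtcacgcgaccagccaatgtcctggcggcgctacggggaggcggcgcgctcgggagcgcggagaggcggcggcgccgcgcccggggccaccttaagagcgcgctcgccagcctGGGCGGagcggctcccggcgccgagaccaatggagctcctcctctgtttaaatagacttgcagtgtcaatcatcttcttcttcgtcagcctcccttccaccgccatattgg
Cdkn2c: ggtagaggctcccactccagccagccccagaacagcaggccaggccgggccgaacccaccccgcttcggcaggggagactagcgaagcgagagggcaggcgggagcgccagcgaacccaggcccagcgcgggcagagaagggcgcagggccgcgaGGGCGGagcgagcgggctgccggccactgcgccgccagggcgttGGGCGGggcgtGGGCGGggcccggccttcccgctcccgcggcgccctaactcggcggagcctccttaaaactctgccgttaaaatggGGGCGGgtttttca
Cdkn2d: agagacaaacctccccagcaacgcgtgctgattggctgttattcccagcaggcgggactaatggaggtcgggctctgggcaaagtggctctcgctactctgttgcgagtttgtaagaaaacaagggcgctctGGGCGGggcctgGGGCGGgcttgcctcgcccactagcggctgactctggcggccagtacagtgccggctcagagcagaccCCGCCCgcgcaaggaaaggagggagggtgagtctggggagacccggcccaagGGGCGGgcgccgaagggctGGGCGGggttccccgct
On both strands of all 6 windows 4 motifs were searched, and no match found overlaps another. An E2F site (TTTNNCGC) had 0 matches in the 6 windows and is found in 5.17% of 32851 promoter windows of the same length. The cell cycle homology region (TTTGAA) also had 0 matches, against 17.9% of all windows. CCAAT was found 3 times in Cdkn1b, 1 time in Cdkn2d and 1 time in the second Cdkn2c window, against 37.4% of all windows with a match. GC boxes numbered 4 in the first Cdkn2c window, 5 in Cdkn2d, 2 in the second Cdkn1a window and 1 in Cdkn1b. Of all windows 35.7% hold a GC box and 5.49% hold 4 or more. The GC box was picked for display after the matches had been seen, and a match is a run of letters, not a bound site.

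Across all kept cells, as a share of all UMIs, Cdkn1a was higher and Cdkn1c and Cdkn2d were lower in the ST-HSC than in the LT-HSC library. Cdkn1a was at 13.3 CPM (12.4 to 14.2) in LT-HSC cells and 23.0 CPM (22.1 to 23.9) in those of ST-HSC, 1.72-fold higher (1.60 to 1.86). Cdkn1c was at 26.7 CPM (25.5 to 28.0) in LT-HSC cells and 9.16 CPM (8.61 to 9.74) in those of ST-HSC, 2.92-fold lower (2.70 to 3.15). Cdkn2d was at 57.7 CPM in LT-HSC cells and 36.9 CPM in those of ST-HSC, 1.56-fold lower (1.49 to 1.63). The other two stayed within 1.5-fold: Cdkn1b was at 59.6 CPM and 46.8 CPM, a ratio of 0.785 (0.753 to 0.818), and Cdkn2c at 11.7 CPM and 11.5 CPM, a ratio of 0.988 (0.903 to 1.08). A gene is called higher or lower here when it differs 1.5-fold or more, with no test. Counts of inhibitors run over all 5, whatever their level. By that limit 1 of the 5 inhibitors was higher and 2 were lower, while 24.9% of the 10412 genes with a mean of at least 5 CPM were higher and 10.3% were lower. The median log2 ratio of those genes was 0.12, against 0.79 for Cdkn1a, -1.54 for Cdkn1c and -0.64 for Cdkn2d.

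The pooled comparison joins cells of different classes in different shares, and the inhibitors were therefore compared within classes.

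**Figure D1:**
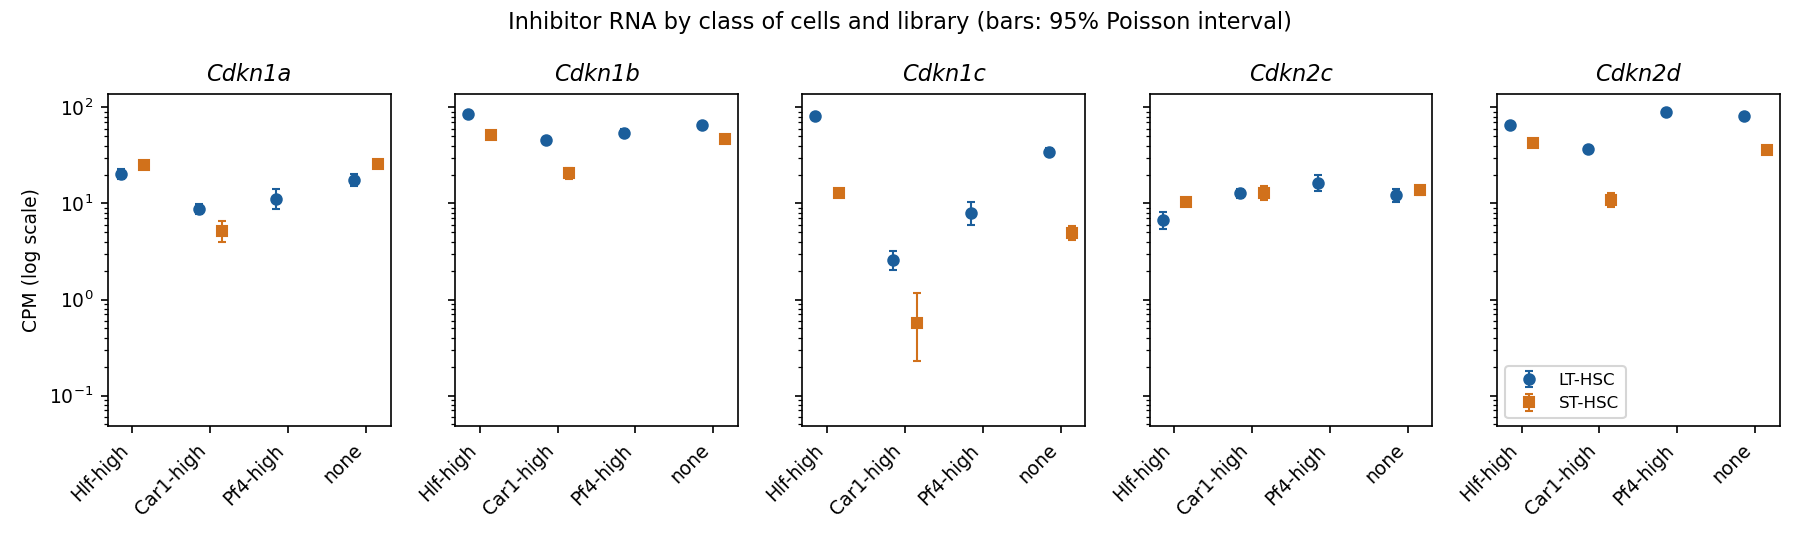
Level of each inhibitor (CPM, log axis) by class of cells in the LT-HSC (blue circles) and ST-HSC (orange squares) library, with the 95% Poisson interval of the summed UMIs as bars; the 3 Pf4-high cells of ST-HSC are not drawn. Cdkn1c spans the widest range, from 81.2 CPM in LT-HSC Hlf-high cells to 0.569 CPM in ST-HSC Car1-high cells, whereas Cdkn2c stays between 6.75 and 16.3 CPM.

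Cdkn1c, the inhibitor p57 and an imprinted gene, had its highest level in the Hlf-high cells of LT-HSC. Its 1154 UMIs there gave 81.2 CPM (76.6 to 86.0), followed by 34.3 CPM (31.1 to 37.7) in LT-HSC cells that passed no limit, 7.99 CPM (5.98 to 10.4) in Pf4-high cells and 2.56 CPM (2.02 to 3.20) in Car1-high cells. In ST-HSC the order was the same at lower levels, with 12.7 CPM (11.9 to 13.6) in Hlf-high cells, 4.96 CPM (4.21 to 5.80) in cells that passed no limit and 0.569 CPM (0.229 to 1.17), or 7 UMIs, in Car1-high cells. Among these classes, no intervals of neighbouring classes within a library overlapped. Hlf-high cells of ST-HSC thus lay 6.39-fold (5.84 to 6.99) below those of LT-HSC at nearly the same median depth.

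The share of cells with Cdkn1c RNA followed the level. With every cell cut down at random to 5000 UMIs (68 shallower cells of LT-HSC and 281 of ST-HSC drop out), 31.6% (28.6 to 34.7) of LT-HSC Hlf-high cells held a Cdkn1c UMI, against 6.32% (5.60 to 7.096) in ST-HSC. Unthinned shares were 59.6% and 15.5%. Car1-high cells served as the low reference, since free RNA in droplets gives UMIs to cells that do not express a gene: 0.617% (0.2005 to 1.43) of them held a Cdkn1c UMI in LT-HSC, and 0 of 317 did in ST-HSC, which, counted as 3 of 317 cells, allows a share with a UMI of up to 0.946%. Unthinned, 5.10% and 1.84% of Car1-high cells held one, at median depths of 31150 and 38054 UMIs. The shares in Hlf-high cells of both libraries lay above those of the Car1-high cells. For the other inhibitors the thinned shares of LT-HSC and ST-HSC Hlf-high cells with a UMI were 8.89% and 10.2% (Cdkn1a), 34.2% and 21.3% (Cdkn1b), 3.10% and 3.83% (Cdkn2c), and 30.1% and 18.5% (Cdkn2d), against unthinned shares of 18.97% and 22.3%, 64.3% and 46.3%, 8.18% and 12.6%, and 57.0% and 41.7%.

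Cdkn1b, the inhibitor p27, followed the same order of classes over a narrower range. It was at 86.0 CPM (81.2 to 90.9) in LT-HSC Hlf-high cells and at 51.5 CPM (49.8 to 53.3) in ST-HSC Hlf-high cells, 1.67-fold lower (1.56 to 1.78). Cells that passed no limit followed at 64.9 CPM and 47.4 CPM. Pf4-high cells of LT-HSC were at 54.3 CPM (48.8 to 60.2), and Car1-high cells at 46.3 CPM (43.9 to 48.8) in LT-HSC cells and 20.6 CPM (18.1 to 23.2) in those of ST-HSC. Hlf-high cells, Car1-high cells and cells that passed no limit each had a higher level in LT-HSC than in ST-HSC, with intervals that did not overlap.

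Cdkn2d, the inhibitor p19, was high in a different class. Its level peaked in Pf4-high cells of LT-HSC at 89.7 CPM (82.6 to 97.2), beside 81.9 CPM (76.9 to 87.1) in cells that passed no limit, with overlapping intervals. Hlf-high cells were at 66.0 CPM (61.8 to 70.3) in LT-HSC cells and 42.2 CPM (40.7 to 43.8) in those of ST-HSC, 1.56-fold lower (1.45 to 1.68), and this ratio moved to 0.680, within 1.5-fold, when the sums were scaled by trimmed means (TMM) or by the median of ratios. Car1-high cells were at 37.3 CPM (35.1 to 39.5) and 11.0 CPM (9.20 to 12.98), 3.40-fold lower (2.84 to 4.09) in ST-HSC.

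Cdkn1a, the p21 inhibitor and a classic target of p53, differed by less than 1.5-fold between the Hlf-high cells of the libraries. It was at 20.3 CPM (18.1 to 22.8) in LT-HSC cells and 24.9 CPM (23.8 to 26.2) in those of ST-HSC, a ratio of 1.23 (1.08 to 1.39). Car1-high cells had a lower level of it, at 8.79 CPM (7.76 to 9.92) in LT-HSC cells and 5.12 CPM (3.93 to 6.55) in those of ST-HSC. The ST-HSC to LT-HSC ratio in Car1-high cells, 0.582, moved to 0.382 with the class limits halved. Without Car1-high and Pf4-high cells the ratio over all cells went from 1.72 to 1.33 (1.20 to 1.46), within 1.5-fold, and it was 1.39 (1.24 to 1.57) in cells without proliferation RNA. Leaving out those classes also took the ratio of Cdkn1b from 0.785 to 0.658 and that of Cdkn1c from 0.343 to 0.172. In the set without Car1-high and Pf4-high cells 0 inhibitors were higher and 3 lower, beside 16.8% and 12.7% of 10678 genes, and in the set without proliferation RNA 0 were higher and 2 lower, beside 20.3% and 13.0% of 10620 genes.

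Cdkn2c, the p18 inhibitor, had its lowest LT-HSC level in Hlf-high cells. It was at 6.75 CPM (5.47 to 8.25) in LT-HSC Hlf-high cells, 12.8 CPM (11.5 to 14.1) in Car1-high cells and 16.3 CPM (13.4 to 19.7) in Pf4-high cells. Hlf-high cells of ST-HSC were at 10.2 CPM (9.49 to 11.0), 1.52-fold higher (1.22 to 1.90) than in LT-HSC, and Car1-high cells at 12.9 CPM in ST-HSC, a ratio of 1.01 (0.837 to 1.22). Within Hlf-high cells 1 of the 5 inhibitors was thus 1.5-fold or more higher in ST-HSC and 3 were lower, beside 16.2% higher and 13.7% lower among 10714 genes. Within Car1-high cells 0 were higher and 4 lower, beside 16.5% and 11.2% of 9165 genes. Cdkn1c averaged under 5 CPM there and is not among those 9165. For the 4 lower ones the ratio ran from 0.222 (0.0863 to 0.479) for Cdkn1c to 0.582 (0.435 to 0.769) for Cdkn1a. As a mean over cells of each cell's own CPM the Cdkn1c ratio was 0.791, within 1.5-fold. Among Car1-high cells with both Mki67 and Top2a UMIs the count was again 0 and 4, beside 17.1% and 11.0% of 9113 genes.

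**Figure D2:**
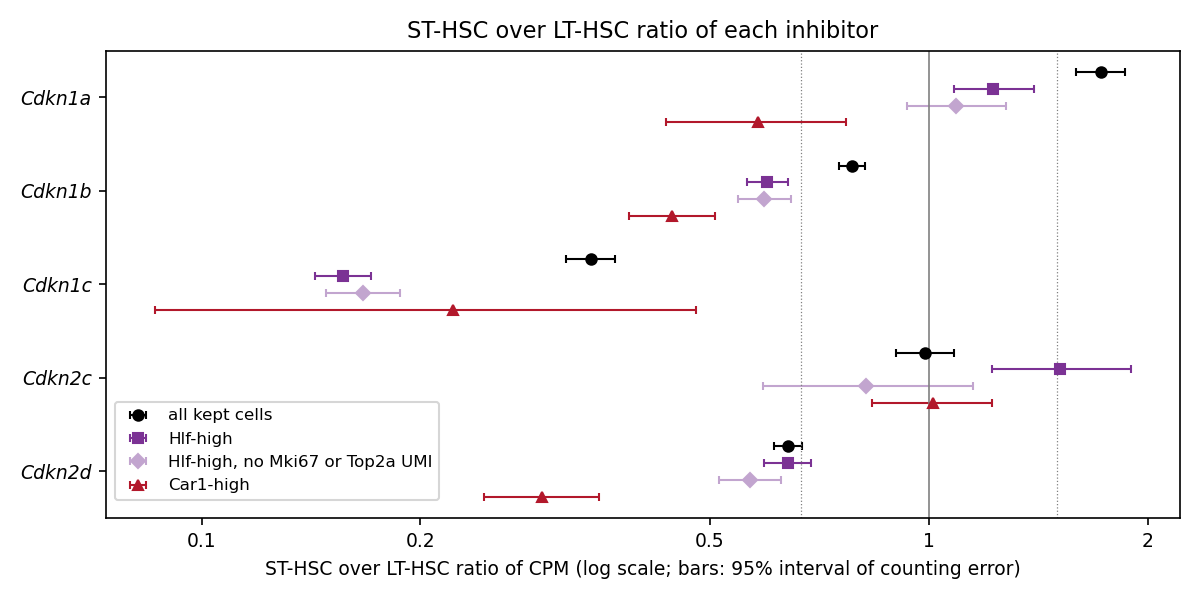
Ratio of the ST-HSC to the LT-HSC level of each inhibitor (log axis), in all kept cells, Hlf-high cells, Hlf-high cells without a Mki67 or Top2a UMI after thinning, and Car1-high cells, with 95% intervals of counting error as bars. Dotted lines stand at 1.5-fold. Cdkn1c lies far below 1 in all 4 sets, and Cdkn2c crosses from 1.52 to 0.821 once Hlf-high cells with proliferation RNA are left out.

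Other RNA also differed between the Hlf-high cells of the libraries. The 4 lymphoid progenitor markers summed to 30.8 CPM in LT-HSC, with Il7r at 0, and to 659 CPM in ST-HSC. The 4 neutrophil and monocyte progenitor markers summed to 484 CPM and 580 CPM, with a different make-up. Prtn3 made nearly all of the LT-HSC sum, and no other of the 4 reached 1 CPM there. It made 390 CPM of the ST-HSC sum, where all 4 reached 1 CPM. The 6 megakaryocyte markers summed to 159 CPM and 40.0 CPM. Mki67 and Top2a, RNAs of dividing cells, were at 36.4 CPM and 91.4 CPM in LT-HSC and at 216 CPM and 365 CPM in ST-HSC. The ST-HSC Hlf-high cells with under 200 CPM of Dntt, which encodes the terminal transferase of lymphoid progenitors, held Cdkn1c at 14.1 CPM, beside 12.7 CPM with Dntt-high cells included and 81.2 CPM in LT-HSC. The B cell markers summed to 38.7 and 29.7 CPM, T or NK cell markers to 25.7 and 99.4 CPM (largely Nkg7), macrophage markers to 10.3 and 17.6 CPM, mature neutrophil markers to 11.3 and 12.3 CPM, and stroma or endothelium markers to 63.9 and 158 CPM (largely Pecam1). Of the gate, Slamf1 was at 39.3 CPM in LT-HSC cells and 1.25 CPM in those of ST-HSC, and Cd48 at 2.88 CPM and 65.5 CPM. Cd34 was at 73.3 CPM and 286 CPM, and Flt3 (Flk2) at 16.0 CPM and 336 CPM. Ly6a (Sca-1) was at 363 CPM and 263 CPM, and Kit at 241 CPM and 237 CPM. The part of these other RNAs in the differences was not tested.

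Hlf-high cells that had neither a Mki67 nor a Top2a UMI after thinning were compared next, 766 cells from LT-HSC and 2315 from ST-HSC. Cdkn1c was at 89.1 CPM (83.5 to 95.02) in LT-HSC cells and 14.9 CPM (13.5 to 16.4) in those of ST-HSC, a ratio of 0.167 (0.148 to 0.187). Cdkn1b was at 89.0 CPM (83.4 to 94.9) and 52.9 CPM (50.2 to 55.7), 1.68-fold lower (1.55 to 1.83), and Cdkn2d at 65.2 CPM (60.4 to 70.2) and 37.0 CPM (34.8 to 39.3), 1.76-fold lower (1.60 to 1.94). For Cdkn1b and Cdkn2d these differences were at least as large as among all Hlf-high cells (1.67-fold and 1.56-fold), and for Cdkn1c nearly as large (a ratio of 0.157 among all). The ratio of Cdkn1a was 1.09 (0.933 to 1.28). That of Cdkn2c turned to 0.821 (0.592 to 1.15), on 55 and 120 UMIs. By the 1.5-fold limit 0 inhibitors were higher and 3 lower in ST-HSC, beside 14.7% and 12.6% of 10636 genes, which leave out Cdkn2c at its mean under 5 CPM.

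Cdkn1c and Cdkn1b were then read along the level of Hlf, in cells below the Car1 and Pf4 limits and without Mki67 or Top2a UMIs. In LT-HSC, Cdkn1c was at 24.4 CPM (18.4 to 31.8) in the 153 cells with no Hlf UMI, at 46.8 CPM (39.9 to 54.5) below 200 CPM of Hlf, at 80.8 CPM (72.1 to 90.4) from 200 to 400, at 90.6 CPM (82.5 to 99.2) from 400 to 800 and at 105 CPM (89.3 to 122) above. In ST-HSC the same steps gave 4.04 CPM (2.50 to 6.18), 6.25 CPM (4.24 to 8.86), 8.08 CPM (5.92 to 10.8), 14.5 CPM (12.2 to 17.0) and 18.3 CPM (16.0 to 20.9). The highest ST-HSC step lay below the lowest LT-HSC step in value, at 18.3 and 24.4 CPM, with overlapping intervals. Cdkn1b showed a smaller range, from 70.6 to 92.6 CPM in LT-HSC and from 51.3 to 54.8 CPM in ST-HSC. The Hlf bins were chosen after the class results had been seen and describe these libraries only.

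**Figure D3:**
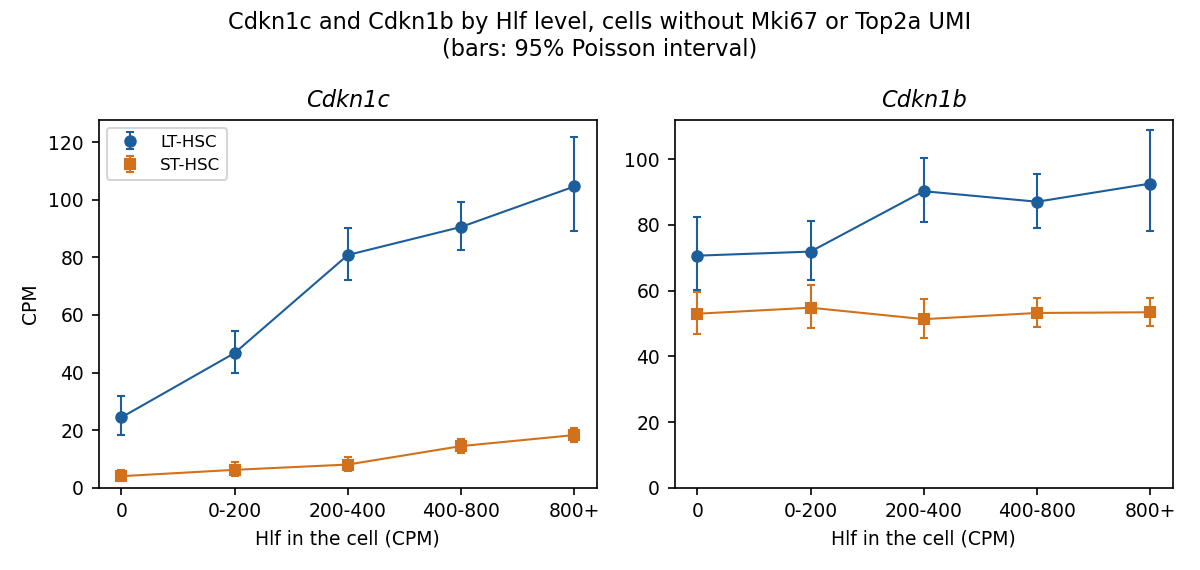
Levels of Cdkn1c and Cdkn1b (CPM) by Hlf level of the cell (CPM), in cells below the Car1 and Pf4 limits without a Mki67 or Top2a UMI after thinning; blue, LT-HSC; orange, ST-HSC; bars, 95% Poisson intervals. Cdkn1c climbs with Hlf in both libraries, from 24.4 to 105 CPM and from 4.04 to 18.3 CPM, while Cdkn1b in ST-HSC stays between 51.3 and 54.8 CPM.

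Against Hlf-high cells of the same library, Car1-high cells had a lower level of every Cip/Kip inhibitor, as a share of all UMIs. Car1-high cells were deeper, with medians of 31150 against 12288 UMIs in LT-HSC and 38054 against 12294 UMIs in ST-HSC. A lower share is thus not less RNA per cell. Unthinned, 69.5% of LT-HSC Car1-high and 64.3% of Hlf-high cells held a Cdkn1b UMI. For Cdkn1a these shares were 16.7% and 18.97%, and for Cdkn1c 5.10% and 59.6%. Cdkn1c was 31.7-fold lower (25.1 to 40.4) in LT-HSC and 22.3-fold lower (10.8 to 55.7) in ST-HSC, and Cdkn1a 2.31-fold (1.95 to 2.74) and 4.87-fold lower (3.79 to 6.37). Cdkn1b was 1.86-fold lower (1.72 to 2.01) in LT-HSC and 2.51-fold lower (2.21 to 2.86) in ST-HSC, and Cdkn2d 1.77-fold (1.62 to 1.93) and 3.85-fold (3.24 to 4.61). Over all cells of these classes Cdkn2c alone was at the higher level in Car1-high cells. Its ratios were 1.89 (1.51 to 2.39) in LT-HSC and 1.26 (1.05 to 1.501) in ST-HSC. The count was 1 higher and 4 lower in LT-HSC, beside 16.0% higher and 39.7% lower of 10302 genes, and 0 higher and 4 lower in ST-HSC, beside 19.8% and 37.0% of 10203 genes.

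The classes differed in scale. Over all genes the median log2 ratio was -0.34 in LT-HSC cells and -0.21 in those of ST-HSC. Scaling by TMM shifted the reference by -0.55 on the log2 scale for LT-HSC and -0.29 for ST-HSC. The same shift was -0.24 for Pf4-high cells, 0.13 for the libraries as wholes, and -0.25 and -0.16 for the proliferation split in all LT-HSC and all ST-HSC cells. With TMM scaling Cdkn1b and Cdkn2d stood at 0.788 and 0.826 of their Hlf-high level in LT-HSC, within 1.5-fold, and Cdkn2c in ST-HSC passed to 1.54. With the median of ratios the LT-HSC ratio of Cdkn1a moved from 0.432 to 0.652 and that of Cdkn2c from 1.89 to 2.85. As means over cells the LT-HSC ratios of Cdkn1a, Cdkn1b and Cdkn2d were 0.710, 0.678 and 0.695, all within 1.5-fold. The Cdkn1c ratio in LT-HSC, 0.0316, became 0.0206 as a mean over cells and 0.0477 with the median of ratios, and that in ST-HSC, 0.0447, became 0.108 as a mean over cells and 0.0272 with the class limits doubled. Car1-high cells also held more proliferation RNA: both Mki67 and Top2a were seen in 41.3% of them in LT-HSC, against 3.32% of Hlf-high cells. In ST-HSC these shares were 66.2% and 23.2%. Among ST-HSC cells with both RNAs, Cdkn2c was at 14.1 CPM (11.8 to 16.8) in Car1-high and 19.3 CPM (17.5 to 21.2) in Hlf-high cells. In LT-HSC it was at 14.8 CPM (12.9 to 16.9) in Car1-high cells with both. The 31 Hlf-high cells with both, too few to compare, were at 27.03 CPM (17.5 to 39.9). Among cells with neither RNA in LT-HSC, Car1-high cells had Cdkn1c 57.2-fold lower (30.0 to 125, on 9 UMIs), Cdkn1b 1.62-fold, Cdkn1a 1.61-fold and Cdkn2d 1.84-fold lower than Hlf-high cells, and Cdkn2c at a ratio of 1.75 (1.18 to 2.61). The count in this set was 1 higher and 4 lower, beside 14.5% and 37.7% of 10314 genes.

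Pf4-high cells of LT-HSC differed from Hlf-high cells most in Cdkn1c and Cdkn2c. Cdkn1c was 10.2-fold lower (7.72 to 13.7), Cdkn1a 1.82-fold lower (1.41 to 2.39) and Cdkn1b 1.58-fold lower (1.41 to 1.79), the last within 1.5-fold under TMM scaling, at 0.745. Cdkn2c was 2.41-fold higher (1.81 to 3.21), and among cells without proliferation RNA its ratio was 1.31 (0.714 to 2.29). Cdkn2d stood at a ratio of 1.36 (1.22 to 1.51), which passed to 1.61 under TMM scaling and was 1.01 (0.846 to 1.20) among cells without proliferation RNA. By the limit 1 inhibitor was higher and 3 were lower, beside 12.6% and 28.6% of 10441 genes. Without proliferation RNA 0 were higher and 3 lower, beside 12.8% and 28.1% of 10399 genes.

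Cells of the ST-HSC library with RNA of other lineages were described after the class results had been seen. Dntt-high cells were 1214 cells at 200 CPM or more of Dntt and below the Car1 and Pf4 limits. No limit was set on their Hlf, and Hlf-high cells are among them. Dntt-high cells held Cdkn1c at 4.66 CPM (3.76 to 5.70), against 14.1 CPM in 3676 Hlf-high cells that were not Dntt-high, 3.04-fold lower (2.45 to 3.801). Their Cdkn1a was at 30.3 CPM against 24.6 CPM, a ratio of 1.23 (1.12 to 1.36), and the ratios of Cdkn1b, Cdkn2c and Cdkn2d were 1.07 (0.997 to 1.15), 1.19 (1.02 to 1.39) and 0.813 (0.747 to 0.885). Of the 5 inhibitors 0 were 1.5-fold higher and 1 lower, beside 2.41% and 4.37% of 10492 genes.

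Mpo-high cells were 227 cells at 1000 CPM or more of Mpo, the myeloperoxidase of neutrophil and monocyte progenitors, at any level of Hlf, Car1 and Pf4. They held 6 Cdkn1c UMIs, or 0.903 CPM (0.331 to 1.97), 14.3-fold lower (6.53 to 39.0) than the 4316 Hlf-high cells that were not Mpo-high. Cdkn1b was at 27.2 CPM and Cdkn2d at 23.0 CPM, with ratios of 0.527 (0.451 to 0.612) and 0.539 (0.455 to 0.635). Cdkn1a stood at 0.822 (0.685 to 0.979) and Cdkn2c at 1.20 (0.944 to 1.51). Of the 5 inhibitors 0 were higher and 3 lower, beside 11.4% and 34.7% of 10280 genes.

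Cells with and without proliferation RNA were compared within each library. After thinning, 20.6% (19.1 to 22.2) of LT-HSC cells and 27.4% (26.3 to 28.5) of ST-HSC cells held both a Mki67 and a Top2a UMI, and unthinned 37.9% and 38.3% did. Cdkn2c was the inhibitor whose RNA went with these cells. In LT-HSC it was at 6.73 CPM (5.75 to 7.83) in cells with neither UMI and 17.7 CPM (16.0 to 19.5) in cells with both, 2.63-fold higher (2.19 to 3.17). In ST-HSC the values were 4.70 CPM (4.04 to 5.43) and 19.2 CPM (17.9 to 20.5), 4.08-fold higher (3.48 to 4.81).

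The Cdkn2c level was also higher with proliferation RNA in each of the 3 classes compared. It was 4.49-fold higher (3.66 to 5.54) in ST-HSC Hlf-high cells, 3.93-fold (2.26 to 7.22) in LT-HSC Pf4-high cells and 1.61-fold (1.19 to 2.22) in LT-HSC Car1-high cells, the last being 1.24 when cells were thinned to 3000 UMIs. LT-HSC had 31 Hlf-high cells with both UMIs, too few to compare, with Cdkn2c at 27.03 CPM (17.5 to 39.9) against 5.23 CPM (3.94 to 6.81) in the 766 with neither. Read the other way, 58.5% (52.6 to 64.3) of ST-HSC cells with a Cdkn2c UMI held both proliferation RNAs, against 25.9% (24.8 to 27.01) of those without. In LT-HSC these shares were 33.6% (25.2 to 42.8) and 20.04% (18.5 to 21.7).

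**Figure D4:**
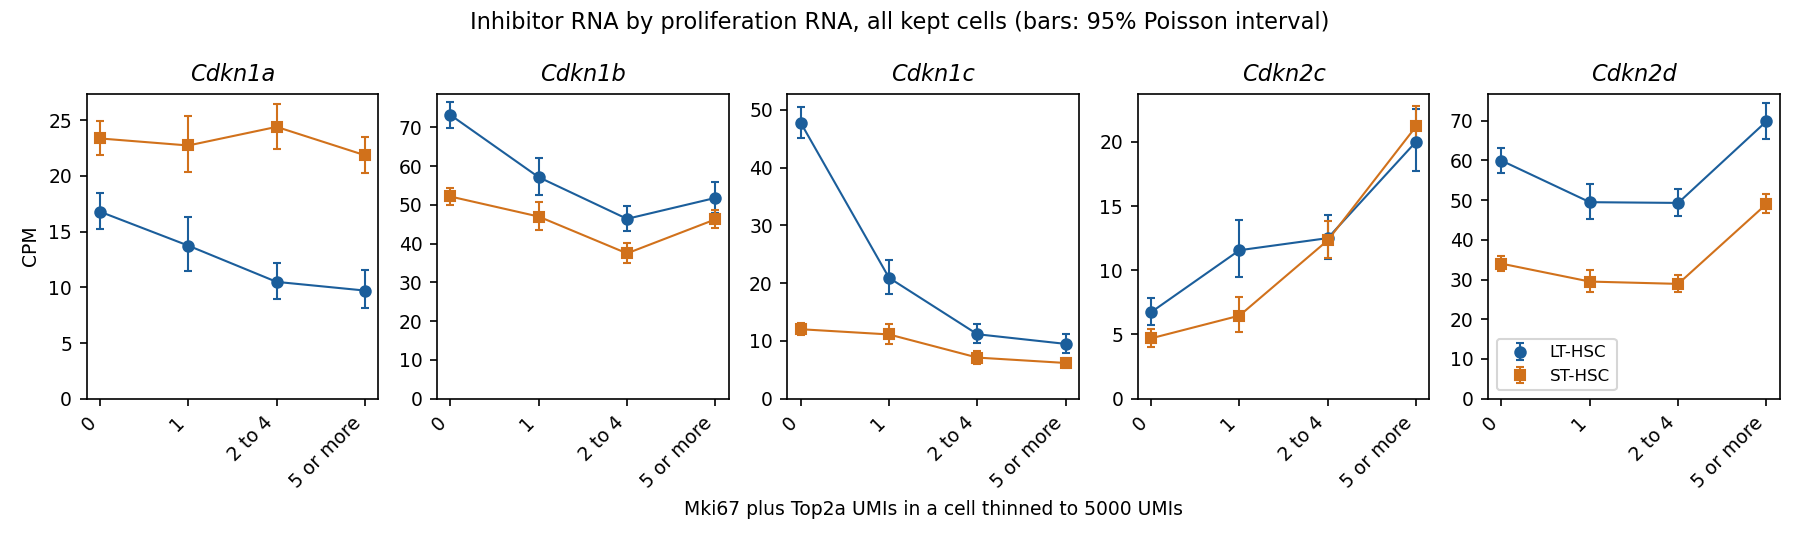
Level of each inhibitor (CPM) by the number of Mki67 plus Top2a UMIs in a cell thinned to 5000 UMIs, all kept cells; blue, LT-HSC; orange, ST-HSC; bars, 95% Poisson intervals. Cdkn2c climbs in both libraries, from 6.73 to 20.01 CPM and from 4.70 to 21.2 CPM, while Cdkn1c in LT-HSC goes from 47.8 down to 9.49 CPM.

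Cdkn2d had its higher level at the top of the proliferation scale only. In ST-HSC it was at 34.0 CPM (32.2 to 35.9) with 0 Mki67 and Top2a UMIs, 29.5 CPM with 1, 28.9 CPM with 2 to 4 and 49.0 CPM (46.7 to 51.4) with 5 or more, and the LT-HSC steps were at 59.9, 49.5, 49.3 and 69.8 CPM. Cells with both RNAs against cells with neither gave ratios of 1.04 (0.969 to 1.12) in LT-HSC and 1.28 (1.19 to 1.37) in ST-HSC, and 1.44 (1.32 to 1.56) in ST-HSC Hlf-high cells. This last value ran from 1.51 to 1.62 with TMM or median-of-ratios scaling, without the 5% of cells with the most UMIs, as a mean over cells, or with thinning to 3000 UMIs. In LT-HSC Pf4-high cells Cdkn2d was 1.94-fold higher (1.59 to 2.38), from 65.8 CPM to 128 CPM. It stood at 1.49, within 1.5-fold, when Mki67 and Top2a were read in unthinned cells, and in LT-HSC Car1-high cells its ratio moved from 1.21 to 0.634 in the same way.

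Over all cells of each library Cdkn1c had the reverse order. In LT-HSC it was at 47.8 CPM (45.1 to 50.6) in cells with neither proliferation RNA and 10.5 CPM (9.22 to 11.98) in cells with both, 4.54-fold lower (3.94 to 5.25), a ratio of 0.220 that moved to 0.147 with the 2 RNAs read unthinned. In ST-HSC it was at 12.03 CPM (11.0 to 13.2) and 6.04 CPM (5.34 to 6.80), 1.99-fold lower (1.71 to 2.32). Class shares moved with this split in LT-HSC, where 31 of 548 cells with both RNAs were Hlf-high against 766 of 1505 with neither. Within Hlf-high cells the difference was smaller: ST-HSC gave 14.9 CPM and 9.15 CPM (7.96 to 10.5), 1.62-fold lower (1.37 to 1.93), and the 31 LT-HSC cells with both were at 70.3 CPM (54.2 to 89.6), beside 51.2 CPM in the 137 cells with 1 of the RNAs and 89.1 CPM in those with neither. In LT-HSC Car1-high cells the ratio was 2.06 (1.001 to 4.78) on 9 and 48 UMIs, and it turned to 0.826 when Mki67 and Top2a were read in unthinned cells. In LT-HSC Pf4-high cells Cdkn1c was at 8.88 CPM with neither RNA and 9.95 CPM with both. That ratio was 1.12 (0.586 to 2.14) on 22 and 21 UMIs, and 0.713 with the 2 RNAs read unthinned.

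Cdkn1b and Cdkn1a followed proliferation RNA less closely. Over all LT-HSC cells Cdkn1b was 1.51-fold lower (1.40 to 1.63) and Cdkn1a 1.55-fold lower (1.32 to 1.83) in cells with both RNAs. Both came within 1.5-fold under TMM scaling, at 0.788 and 0.764. With the 2 RNAs read unthinned, the ratios in LT-HSC Car1-high cells moved from 0.822 to 0.520 for Cdkn1b and from 0.643 to 0.266 for Cdkn1a, and that of Cdkn1a in LT-HSC Pf4-high cells turned from 0.587 to 1.72. In ST-HSC Hlf-high cells the ratio of Cdkn1b was 0.996 (0.922 to 1.08), at 52.9 CPM and 52.7 CPM, and that of Cdkn1a 1.21 (1.08 to 1.36). By the limit 1 inhibitor was higher and 3 lower in all LT-HSC cells, beside 8.32% and 24.1% of 10124 genes. In all ST-HSC cells it was 1 higher and 1 lower, beside 9.36% and 13.6% of 10553 genes. In ST-HSC Hlf-high cells it was 1 and 1, beside 7.16% and 6.77% of 10536 genes, in LT-HSC Car1-high cells 2 and 1 (Cdkn1c, under 5 CPM, included), beside 4.48% and 6.48% of 9234, and in LT-HSC Pf4-high cells 2 and 1, beside 7.57% and 8.73% of 9787.

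Cells without a Mki67 or Top2a UMI after thinning can still hold RNA of S phase, and were split by a list of 19 S phase genes (Mcm2 to Mcm7, Pcna and others). The split is coarse: all thinned Hlf-high cells had medians of 2 (LT-HSC) and 4 (ST-HSC) such UMIs, and tied cells were ranked by matrix order. Median depths of the lowest and highest 25% were 10502 and 14261 UMIs in LT-HSC, and 8740.5 and 13053.5 in ST-HSC. Between the 25% of Hlf-high cells with the highest and the 25% with the lowest share of these RNAs, Cdkn2c had ratios of 1.84 (0.852 to 4.29) in LT-HSC, on 10 and 25 UMIs. In ST-HSC its ratio was 1.90 (1.09 to 3.46), on 18 and 51 UMIs. Cdkn1c had ratios of 0.714 (0.595 to 0.857) and 0.639 (0.480 to 0.850), Cdkn1b of 0.770 (0.640 to 0.925) and 0.829 (0.716 to 0.961), and Cdkn2d of 0.847 (0.680 to 1.06) and 0.756 (0.633 to 0.903). Cdkn1a was at 0.926 (0.629 to 1.37) and 1.02 (0.813 to 1.28). By the limit 1 inhibitor was higher and 0 lower in LT-HSC, beside 5.29% and 6.66% of 10604 genes, and 1 higher and 1 lower in ST-HSC, beside 7.24% and 7.47% of 10566, with Cdkn2c under 5 CPM in ST-HSC. Over cells of all classes without Mki67 and Top2a, Cdkn2c had ratios of 1.64 (1.04 to 2.65) in LT-HSC and 1.91 (1.24 to 3.02) in ST-HSC, and Cdkn1c of 0.180 (0.147 to 0.219) and 0.599 (0.456 to 0.786). The counts there were 1 higher and 2 lower in LT-HSC, beside 11.9% and 26.7% of 10387 genes, and 1 higher and 1 lower in ST-HSC, beside 10.2% and 13.0% of 10622. Cdkn2c was thus at the higher level in cells richer in S phase RNA in both libraries, at small counts.

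At the thinned depth UMIs of few inhibitors were seen per cell. These numbers depend on depth, and a gene without a UMI can still be expressed. Unthinned, 64.3% of LT-HSC Hlf-high cells held a Cdkn1b UMI, against 34.2% thinned. At 5000 UMIs, 28.3% of LT-HSC Hlf-high cells held no UMI of any of the 5, 42.7% of 1 gene, 22.7% of 2 and 6.32% of 3 or more. In ST-HSC Hlf-high cells the shares were 52.4%, 36.4%, 9.98% and 1.22%, and in ST-HSC Car1-high cells 74.8% held none. The mean was 1.39 inhibitor UMIs per LT-HSC and 0.687 per ST-HSC Hlf-high cell. Cdkn1c made up 32.5% of them in LT-HSC, against 10.0% in ST-HSC, while Cdkn1a made up 7.84% and 17.6%. UMIs of a 3' library count molecules and are not scaled by gene length, and how well each RNA is captured was not measured.

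Genes with the most similar profile were sought for each inhibitor over the 19 groups of library, class and proliferation state with 50 or more cells, among 8567 genes reaching 20 CPM in a group (Pearson correlation of log2(CPM + 1)). The groups come from 2 libraries and share their cells' depth and class, so the correlations are descriptions. Cdkn2c was closest to Fbxo5 (0.97), an inhibitor of the anaphase-promoting complex, to Spc25 (0.96), a kinetochore protein, and to the histone genes Hist1h2ae (0.96) and H2afx (0.95). Cdkn1c was closest to Magi2 (0.97), Npdc1 (0.97), Abcg3 (0.96) and Ndn (0.96), the last an imprinted gene encoding necdin. Cdkn1b was closest to Selenop (0.96), Malat1 (0.95), Pnrc1 (0.95) and H2-M3 (0.95), Cdkn2d to Cggbp1 (0.96), H1fx (0.96), Cript (0.95) and Calm2 (0.95), and Cdkn1a to Adamts10 (0.94), Casp8 (0.94), Laptm5 (0.93) and Rel (0.93). Among the inhibitors themselves Cdkn1b and Cdkn1c were most alike (0.84), and Cdkn2c was negative with Cdkn1a (-0.22), Cdkn1b (-0.32) and Cdkn1c (-0.34).

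Other inhibitors and the genes around this pathway were read in Hlf-high cells without a Mki67 or Top2a UMI after thinning, ST-HSC over LT-HSC. Cdkn2a and Cdkn2b, the other INK4 loci, were barely detected, with 13 and 5 UMIs over all LT-HSC cells and 3 and 1 over all ST-HSC cells. Cdkn3, a phosphatase of CDKs, was at 17.8 CPM and 21.1 CPM over all cells. In ST-HSC Hlf-high cells it was 18.7-fold higher (14.7 to 24.2) with proliferation RNA, from 2.54 to 47.6 CPM.

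Of the 11 listed G1 and S cyclins and kinases 7 averaged at least 5 CPM, of which 1 was 1.5-fold or more higher in ST-HSC and 0 were lower, with a median log2 ratio of 0.08. Over all 10636 genes of this comparison 14.7% were higher and 12.6% lower, with a median of -0.01. The higher one was Cdk6, a kinase inhibited by p18 and p19, at 200 CPM in LT-HSC cells and 658 CPM in those of ST-HSC, 3.29-fold higher (3.15 to 3.44). Ccnd2 and Ccnd3, D-type cyclins, stood at 0.755 (0.720 to 0.793) and 1.34 (1.30 to 1.39). Of 6 pocket protein and E2f genes at that level (7 listed) 2 were higher and 1 lower (median 0.22): E2f3 stood at 1.90 (1.74 to 2.07), Rbl1, which encodes p107, at 1.55 (1.37 to 1.77), and E2f4, a repressive E2F, at 0.653 (0.580 to 0.738).

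Of 14 genes of the p53 pathway at that level (19 listed) 1 was higher and 2 lower (median -0.14), counts near the 14.7% and 12.6% of all genes. The called genes are named for their size only. Btg2, an antiproliferative gene, was 1.61-fold higher (1.49 to 1.74), while Fas, a death receptor, stood at 0.190 (0.131 to 0.273) and Plk2, a polo-like kinase, at 0.190 (0.148 to 0.243). Of 6 genes of p27 turnover 0 were higher and 1 lower (median 0.11), namely Skp1a, a subunit of SCF ubiquitin ligases, at 0.564 (0.536 to 0.593). Skp2, which brings p27 to that ligase, stood at 1.26 (1.03 to 1.54) and its cofactor Cks1b at 1.36 (1.22 to 1.53). With proliferation RNA both were higher in ST-HSC Hlf-high cells, Skp2 2.25-fold (1.997 to 2.53) and Cks1b 3.98-fold (3.75 to 4.24).

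Of 9 Foxo and TGF-beta genes, regulators of p27 and p57 in other settings, 4 were higher and 0 lower in ST-HSC (median 0.50), beside 14.7% and 12.6% of all genes. Smad3, a TGF-beta signal carrier, was 2.29-fold higher (2.08 to 2.53), Foxo3, a transcription factor of quiescent HSCs, 2.28-fold (2.11 to 2.46) and Tgfbr2, a TGF-beta receptor, 2.14-fold (1.94 to 2.36), and Tgfbr1, named as the remaining one of the 4 after its value was seen, stood at 1.74. Of 6 measured imprinted or neighbouring genes of Cdkn1c on chromosome 7 (9 listed) 0 were higher and 3 lower (median -0.67), beside the same 14.7% and 12.6%. Phlda2, imprinted like Cdkn1c, stood at 0.331 (0.278 to 0.393), Cd81, a tetraspanin, at 0.466 (0.446 to 0.487) and Tssc4 at 0.525 (0.470 to 0.586). Kcnq1ot1, the antisense RNA that silences the paternal copies of the cluster and was singled out after its value was seen, stood at 1.05 (1.01 to 1.09), at 374 CPM and 392 CPM.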

How the data were processed

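The deposited matrices hold UMI counts per gene and cell, made by the authors with Cell Ranger 7.2 against mm10, per the submitters' processing notes; the file headers name version 7.1.0. Whether ambient RNA or doublets were removed is not given in the sources used here, and no doublet caller was run; an alternative leaves out the 5% of cells with the most UMIs. Gene identifiers were matched to GENCODE M21 (32158 of 32285 found). Here, cells with at least 1000 genes and under 10% mitochondrial UMIs were kept, and counts were summed per library or class and divided by the summed UMIs of all genes (CPM). Levels carry exact Poisson intervals, ratios exact conditional binomial (Clopper-Pearson) intervals and shares exact Clopper-Pearson intervals (a share of 0 a limit of 3 counts), at 95%, for counting error only. With 1 library per group no test was run; genes averaging at least 5 CPM are called at 1.5-fold, and groups under 50 cells were not compared. Mki67 and Top2a were read, and shares computed, after thinning cells to 5000 UMIs. Other cells' markers (7 HSC, 7 erythroid, 6 megakaryocyte and further lists) were summed. All 5 inhibitors were counted in every comparison, but not every ratio is printed. Named besides are up to 3 genes per pathway list with the largest ratio, and the 4 genes of most similar profile. The members, lists and limits were chosen with earlier results of these data known. Alternatives covered scaling (TMM from edgeR 4.0.16, median of ratios), filters, class limits, thinning and left-out cells. Python 3.11.15, numpy 2.4.6, scipy 1.17.1 and pandas 2.3.3 were used. The ratio intervals were run on simulated Poisson counts. These have no spread between cells or libraries, so they cannot show how the intervals fit such spread.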

Additional observations from a re-analysis of the deposited data

Results flagged for a closer look

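The ST-HSC to LT-HSC ratio of Cdkn1a lay on opposite sides of 1 in the compared classes: it was 1.23 in Hlf-high cells and 0.582 in Car1-high cells, the latter 0.382 with the class limits halved. With 1 library per group the difference between these ratios was not tested.

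Inhibitor RNA was also seen in the barcodes that the filters left out, above the level that 3 counts give there (6.19 CPM for LT-HSC, 1.77 CPM for ST-HSC). In the 216 left-out LT-HSC barcodes Cdkn1b was at 51.6 CPM and Cdkn2d at 20.6 CPM. In the 938 left-out ST-HSC barcodes Cdkn1b was at 39.5 CPM, Cdkn2d at 14.1 CPM, Cdkn1a and Cdkn2c at 5.30 CPM each and Cdkn1c at 3.53 CPM.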

How the results depend on the processing

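No paired analysis was possible because each group has 1 library, and no replicate could be left out for the same reason. The 55 values of the inhibitors were recomputed under the alternatives, giving 350 values. Of these, 3 reversed direction from a main value beyond the 1.5-fold limit, 48 changed side of that limit and 22 moved by over 1.5 times. The causes were not tested. The reversed log2 ratios were -0.28 for Cdkn2c, ST-HSC over LT-HSC in Hlf-high cells without Mki67 or Top2a UMIs, and, with Mki67 and Top2a read unthinned, -0.28 for Cdkn1c in LT-HSC Car1-high cells and 0.78 for Cdkn1a in LT-HSC Pf4-high cells with both over neither. Values within the limit that changed sign are not in that count. Among them, read unthinned with both over neither, Cdkn2d in LT-HSC Car1-high cells went from 0.27 to -0.66. Cdkn1c in LT-HSC Pf4-high cells went from 0.16 to -0.49. Of 140 counts of inhibitors 35 moved. For ST-HSC over LT-HSC in all cells, 1 higher became 0 as a mean over cells, without cells with proliferation RNA, and without Car1-high and Pf4-high cells. In Hlf-high cells 1 higher became 0 without cells with proliferation RNA. The lower calls moved too. Cdkn2d in Hlf-high cells came within 1.5-fold with TMM or the median of ratios (0.680). Cdkn1c in Car1-high cells did so as a mean over cells (0.791). Cdkn1b in all cells became lower without Car1-high and Pf4-high cells (0.658). For Car1-high over Hlf-high cells, 4 lower in LT-HSC became 2 with TMM, 2 with the median of ratios and 1 as a mean over cells, and 0 higher in ST-HSC became 1 under each of these 3. For Pf4-high over Hlf-high cells, 1 higher became 2 with TMM or the median of ratios and 0 without proliferation RNA. For both over neither in all LT-HSC cells, 3 lower became 1 with TMM, the median of ratios, a mean over cells or without the 5% of cells with the most UMIs; in LT-HSC Car1-high cells 1 lower became 0 with TMM, the median of ratios, without that 5% or with thinning to 3000 UMIs, and 3 unthinned, where 2 higher became 1 with 3000 UMIs and unthinned; in LT-HSC Pf4-high cells 1 lower became 0 unthinned. In ST-HSC 1 higher became 2 without that 5% in all cells, and in Hlf-high cells also with TMM, the median of ratios, a mean over cells or 3000 UMIs. Over all genes, ST-HSC over LT-HSC, 2592 higher and 1072 lower became 8550 and 4548 with no filter on low values and 1126 and 300 at a fold limit of 2.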
